A study of Mus musculus with 15 samples.

Results

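Start sites that carried H3K4me3 while their gene was listed with almost no RNA were described in TT2 cells, a male wildtype mouse embryonic stem cell line of C57BL/6 x CBA background. A member was a 1 kb window around a start site with at least 10 RPKM of H3K4me3 at 10000 cells and at least 5 RPKM at 5000 cells, whose gene had under 0.1 RPKM of RNA in all of its rows of the deposited gene table. RPKM is a read density scaled to the length of the window or exons and to the depth of the library. The rule found 586 windows of 230 genes, among 74866 windows of 25727 genes. Of the 8550 genes that met the H3K4me3 levels and were listed in the gene table, the 230 made up 2.69%. The members were thus chosen by the H3K4me3 levels at 10000 and 5000 cells and by the RNA, and these are given only as a description.

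The series profiled chromatin without crosslinking (native ChIP-seq) in 14 libraries and ribosomal RNA-depleted total RNA in 1 library of 1000 cells. H3K4me3 was measured in 1 library each of 100000, 10000 and 5000 cells, and H3K27me3 in 1 library each of 100000, 10000 and 1000 cells. For H3K9me3 there was 1 library at 1000000, 100000 and 10000 cells and 3 at 1000 cells, lettered a to c, and for histone H3 of any modification (panH3) 2 at 1000 cells, lettered a and b. All groups share the cell line and genotype, no treatment was given in the labels, and separate cultures were not named, so the p-values below measure only the spread between these libraries.

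H3K4me3, the trimethylation of lysine 4 of histone H3, marks the start sites of transcribed genes and most CpG-rich promoters, including many that are silent. H3K27me3 is laid down by Polycomb repressive complex 2. In embryonic stem cells many genes of development carry both marks and make little RNA, an arrangement called bivalent.

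Promoter sequences were taken from RefSeq (GRCm38.p6) and matched for 194 of the 230 genes (84.3%). The 6 below are shown because they span what the group holds. Rsbn1 is among the 8 genes highest in H3K4me3, Kl, Hlx and Irx3 are among the 8 highest in H3K27me3, and Prok2 and Asb15 are, with Hlx, among the 4 lowest in H3K4me3. Rsbn1 ranks there by its window chr3:103717990-103718990 (mm9, 11.02 RPKM at 100000 cells), while its window chr3:103717543-103718543 had 4.10 RPKM. The first RefSeq start of each gene was used without matching it to a window. The run printed for Rsbn1 may therefore belong to the weaker window. Each run is the 250 bases before the RefSeq start, 5′ to 3′ on the strand of the gene, and capitals mark CpG dinucleotides. The positions are chr3:103913870-103914119 (plus strand) for Rsbn1, chr5:150952357-150952606 (plus) for Kl, chr1:184732494-184732743 (minus) for Hlx, chr8:91801655-91801904 (minus) for Irx3, chr6:99726393-99726642 (minus) for Prok2 and chr6:24527894-24528143 (plus) for Asb15.
Rsbn1: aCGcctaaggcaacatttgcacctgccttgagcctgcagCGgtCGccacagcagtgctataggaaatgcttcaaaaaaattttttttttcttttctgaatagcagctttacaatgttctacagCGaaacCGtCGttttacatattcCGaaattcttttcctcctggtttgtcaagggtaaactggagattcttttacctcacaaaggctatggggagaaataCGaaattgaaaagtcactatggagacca
Kl: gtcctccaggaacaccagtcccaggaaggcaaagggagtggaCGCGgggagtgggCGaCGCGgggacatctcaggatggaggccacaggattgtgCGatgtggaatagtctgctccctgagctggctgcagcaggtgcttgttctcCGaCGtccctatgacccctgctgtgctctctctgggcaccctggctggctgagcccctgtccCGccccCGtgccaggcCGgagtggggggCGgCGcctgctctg
Hlx: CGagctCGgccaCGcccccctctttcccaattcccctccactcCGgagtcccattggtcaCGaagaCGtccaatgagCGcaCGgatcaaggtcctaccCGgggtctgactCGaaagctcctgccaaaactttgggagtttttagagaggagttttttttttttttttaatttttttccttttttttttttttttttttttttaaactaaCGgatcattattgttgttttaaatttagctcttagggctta
Irx3: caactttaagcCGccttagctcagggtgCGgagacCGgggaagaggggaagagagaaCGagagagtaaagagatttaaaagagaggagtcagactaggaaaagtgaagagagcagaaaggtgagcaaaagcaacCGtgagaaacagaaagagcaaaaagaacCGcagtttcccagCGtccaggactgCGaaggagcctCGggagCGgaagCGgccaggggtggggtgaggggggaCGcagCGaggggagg
Prok2: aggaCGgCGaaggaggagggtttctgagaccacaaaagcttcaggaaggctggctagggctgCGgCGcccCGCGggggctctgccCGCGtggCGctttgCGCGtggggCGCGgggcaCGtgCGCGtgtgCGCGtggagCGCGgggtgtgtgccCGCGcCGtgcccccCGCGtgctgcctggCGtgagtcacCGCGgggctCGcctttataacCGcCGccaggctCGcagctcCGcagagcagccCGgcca
Asb15: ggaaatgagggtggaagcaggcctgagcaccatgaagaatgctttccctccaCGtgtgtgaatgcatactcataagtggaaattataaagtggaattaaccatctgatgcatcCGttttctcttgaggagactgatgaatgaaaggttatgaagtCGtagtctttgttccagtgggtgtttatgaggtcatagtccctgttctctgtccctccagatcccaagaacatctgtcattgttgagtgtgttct

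The printed run of Prok2, a secreted prokineticin, held 34 CpG, and that of Asb15, an ankyrin repeat protein gene expressed in muscle, held 3. Irx3 and Hlx, both homeobox genes, held 13 and 11, Kl, which encodes the ageing-related membrane protein Klotho, held 13, and Rsbn1 held 8. CpG content therefore differed widely between these 6 members. The window of Asb15 also lay 456 bp from the start of the expressed gene Ndufa5 (5.38 RPKM), so its H3K4me3 cannot be assigned to 1 of the 2 genes. Over the 300 bases of the RefSeq table (250 before and 50 after the start), the 194 matched genes had a median of 7 CpG per 100 bases and a median GC content of 62.2%. These bases lie at the first listed RefSeq start, which need not be the start under the H3K4me3 window. The windows of 25 members lay over 1 kb from any gene table start of their gene (below). Genes with H3K4me3 and RNA of 1 RPKM or more had medians of 8 and 62.3% (6261 of 7681 matched). All 27025 genes of the RefSeq promoters had medians of 2.33 and 52.7%. The members were thus much closer to expressed H3K4me3 genes than to all promoters. Members and expressed genes were both chosen by the same H3K4me3 levels, and H3K4me3 marks most CpG-rich promoters. Their closeness may therefore follow from the choice and is no test. The 138 matched genes that overlap another gene on the opposite strand (below) had a median of 7.33 CpG per 100 bases, and the 56 others 6.33.

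Short motifs were searched on both strands of the same 300 bases, and none of the 3 contains another. TATAAA was in 9 of 194 member promoters (4.64%), against 5.77% of promoters of expressed H3K4me3 genes and 14.2% of all promoters. CCAAT was in 35.6%, against 39.1% and 37.9%. GGGCGG, the core of a GC box, was in 62.9%, against 70.5% and 35.9%.

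The members were spread over 20 chromosomes. There were 1 to 9 member windows a gene, and 99 genes had 1. Windows of 1 gene often overlap each other and share their reads, so genes rather than windows were counted where possible, with the window that was highest at 100000 cells standing for its gene. The lowest passing level at 10000 cells, 10.31 RPKM, rests on 11 reads (exact 95% Poisson interval 5.49 to 19.7, counting error only), and the lowest at 5000 cells, 5.39 RPKM, on 10 reads (4.80 to 18.4). The libraries held 16.6, 1.07 and 1.86 M reads (M for 1000000) at 100000, 10000 and 5000 cells. Just inside the 10 RPKM level were windows of Eng and A330050B17Rik at 10.31 RPKM, and just outside it windows of Adcy3 at 9.38 RPKM. Just inside the RNA limit were 4732471D19Rik, Fam63a and Fos at 0.09 RPKM, and just outside it Ankrd43, Armc6 and Cetn4 at 0.10 RPKM.

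RNA was listed at 0 for 80 of the 230 genes. The RNA library held the transcripts of embryonic stem cells: 27 of 28 marker genes had 1 RPKM or more and 0 had under 0.1, with Pou5f1 at 81.4 RPKM, Nanog at 53.6 and Zfp42 at 222 RPKM. Of 28 fibroblast markers, which feeder cells would express, 6 had 1 RPKM or more and 13 had under 0.1 RPKM. Over all 22035 genes of the gene table, 30.8% had under 0.1 RPKM. Genes used by nearly every cell were also listed at 0, among them Hnrnpk, which encodes an abundant RNA-binding protein. Hnrnpk was the 1 gene of 18 named Hnrnp that was under 0.1 RPKM, and the median of the 18 was 47.4 RPKM. An RNA value of 0 is therefore given here as listed, and the label "without RNA" is taken as a statement about the table. In a bulk library, RNA in few cells and little RNA in every cell cannot be told apart.

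At 100000 cells, a library that the rule did not use, the member genes had a median of 4.94 RPKM of H3K4me3 (middle 50% of genes from 3.69 to 6.56). Expressed H3K4me3 genes had a median of 5.78 RPKM, H3K4me3 genes with RNA from 0.1 to 1 RPKM 4.46, and the 5670 genes with neither H3K4me3 at the set levels nor RNA 0.36 RPKM. Of the 230, 114 (49.6%) had 5 RPKM or more, against 61.8% of expressed H3K4me3 genes and 42.4% of those with RNA from 0.1 to 1 RPKM. The member genes thus lay between expressed H3K4me3 genes and those with RNA from 0.1 to 1 RPKM. All of these met the same H3K4me3 levels. Genes lacking both had failed those levels, so their lower median follows largely from how the groups were chosen and is no test. The window of each gene was also picked by its level at 100000 cells. Higher windows may have been removed before deposit (below), so the median of expressed genes may be too low. With 1 library a cell number there is no replicate check.

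**Figure D1:**
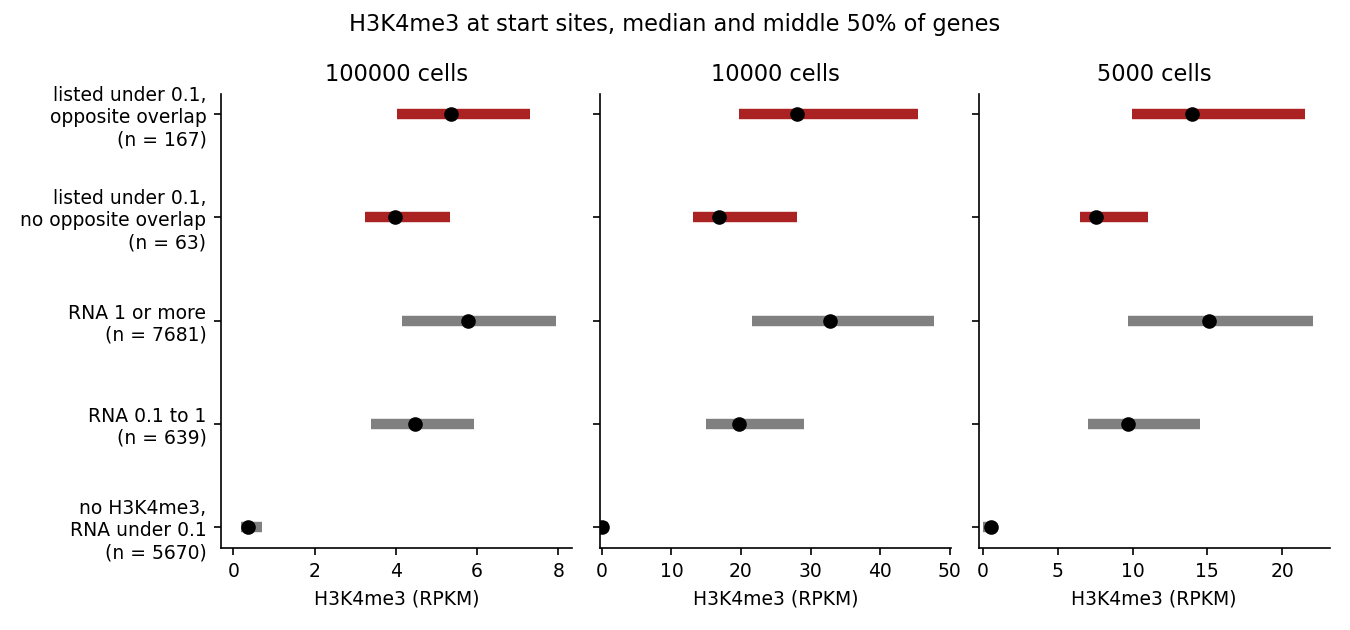
H3K4me3 in RPKM at start sites in the libraries of 100000, 10000 and 5000 cells; points are medians over genes and bars the middle 50% of genes. The 167 members that overlap a gene on the opposite strand (median 5.36 RPKM at 100000 cells) sat beside expressed genes (5.78), and the 63 others lower (3.97). The levels at 10000 and 5000 cells chose the members.

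The gene with the highest H3K4me3 was Vdac2, a channel of the mitochondrial outer membrane, in the window chr14:22650448-22651448 (mm9). It had 14.57, 66.56 and 29.62 RPKM at 100000, 10000 and 5000 cells, and its RNA was listed at 0.02 RPKM. Yrdc, which takes part in a modification of transfer RNA (chr4:124527503-124528503), had 13.37, 89.06 and 46.32 RPKM of H3K4me3 and 0.01 RPKM of RNA. Hnrnpk (chr13:58502967-58503967) had 12.23, 80.63 and 45.24 RPKM and RNA listed at 0. All 3 were above the median of expressed genes in each library. N4bp3, the ubiquitin ligase gene Siah1a, the Ras regulator Rasal2, 5830403L16Rik and Rsbn1 complete the 8 highest, at 11.02 to 12.95 RPKM at 100000 cells. The 4 lowest at 100000 cells were Mkks, a chaperonin-like gene, and Hlx, both at 1.63 RPKM, Prok2 at 1.51 and Asb15 at 0.96 RPKM.

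The members overlapped other genes far more often than H3K4me3 genes in general. Of the 230, 167 (72.6%) shared bases with a gene on the opposite strand, against 9.76% of the 20317 genes in both tables and 9.46% of the 7681 expressed H3K4me3 genes. H3K4me3 genes with RNA from 0.1 to 1 RPKM lay between, with 160 of 639 (25.0%), so a raised share was not particular to the members. Seen from the other side, RNA under 0.1 RPKM was listed for 54 of 7221 H3K4me3 genes that overlap no gene (0.748%, exact Clopper-Pearson 95% interval 0.562 to 0.975%). It was listed for 9 of 275 that overlap only on the same strand (3.27%) and for 167 of 1054 that overlap on the opposite strand (15.8%, 13.7 to 18.2%). Head-to-head pairs, whose starts lie inside each other, stood highest with 65 of 273 (23.8%, 18.9 to 29.3%), before tail-to-tail pairs with 97 of 636 (15.3%, 12.5 to 18.3%). Nested pairs, in which 1 gene lies within the other, had 5 of 145 (3.45%, 1.13 to 7.86%). Overlap was examined after the values had been seen. Whether the authors' counting assigned reads in overlapping exons to 1 gene, to both or to neither, and whether it used strand, is not given in the sources used here, so the RNA values of these 167 genes are uncertain. Its part in the low RNA values was not tested.

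**Figure D2:**
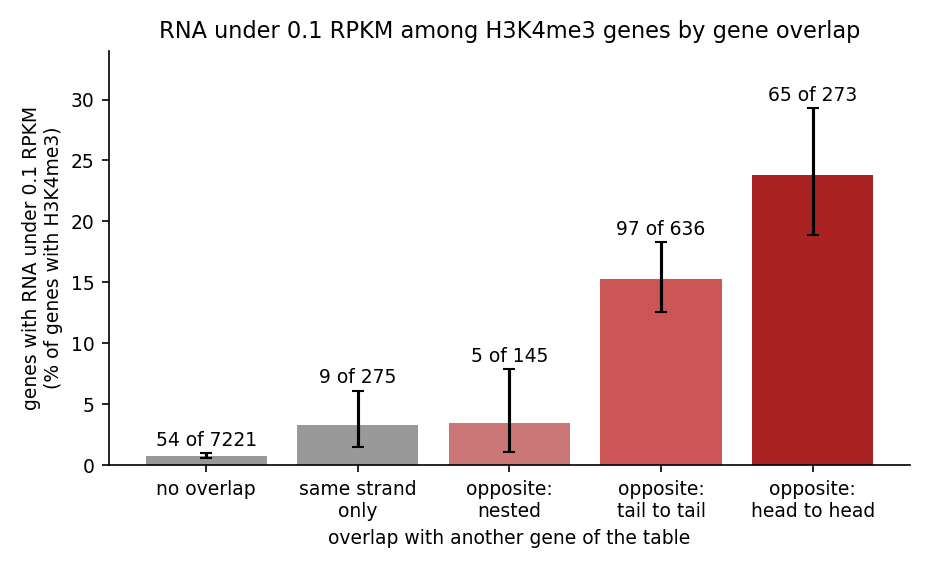
Share of H3K4me3 genes listed under 0.1 RPKM of RNA (vertical axis, percent), by overlap with another gene of the table; error bars are exact 95% binomial intervals and the labels give the genes. The share was 0.748% without overlap and 23.8% for head-to-head pairs.

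The shared stretches were short. Their median was 136 bp (from 4 to 38120 bp), a median of 0.718% of the length of the member gene, and 147 of the 167 covered under 10% of it. Among opposite-strand overlaps, the share under 0.1 RPKM was 34.4% (75 of 218) for overlaps under 100 bp, 14.9% from 100 to under 1000 bp, 6.10% from 1000 to under 10000 bp and 5.71% above that. Shorter overlaps thus went with the larger share. All of the gene table's large coordinates lie on a grid of up to 16 bp, so positions may be off by up to 8 bp and the shortest overlaps, such as the 8 bp of Yrdc with Maneal, may not be real. With overlaps of at least 50 bp, 120 of 230 members (52.2%) overlapped, against 8.64% of expressed H3K4me3 genes and 23.8% of those with RNA from 0.1 to 1 RPKM.

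RNA of the overlapping partner was 1 RPKM or more for 104 of the 167 (62.3%, 54.5 to 69.6%), from 0.1 to 1 for 38 and under 0.1 for 25, with a median of 2.26 RPKM. Partners of expressed H3K4me3 genes with such an overlap had 1 RPKM or more in 438 of 727 cases (60.2%), which lies within that interval, and 52.2% of all genes in both tables had 1 RPKM or more. Hnrnpk overlapped Rmi1, a gene of the Bloom helicase complex, head to head over 268 bp, and Rmi1 was listed at 7.19 RPKM. Mkks overlapped 2210009G21Rik over 176 bp, which was listed at 52.13 RPKM, against 0 for Mkks. Nfs1, the cysteine desulfurase of iron-sulfur cluster assembly, overlapped Romo1 over 32 bp, with Romo1 at 6.35 RPKM and Nfs1 listed at 0. In each of these pairs 1 gene carried the listed RNA although the H3K4me3 window covered both starts. In other pairs both genes were low: Rsbn1 was listed at 0 RPKM and A130049A11Rik, itself a member, at 0.01. Timm8b and AU019823, both members and overlapping tail to tail, were both listed at 0. Of these 4 genes, Rsbn1 alone had no start of an expressed gene within 2 kb. Sdhd (26.86 RPKM) started 54 bp from the middle of the Timm8b window and Phtf1 (5.49 RPKM) 328 bp from that of A130049A11Rik. Pih1d2 (1.68 RPKM) overlapped AU019823 head to head over 144 bp.

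Start sites of expressed genes lay within 2 kb of the chosen window of 84 of the 230 genes (36.5%, exact 95% interval 30.3 to 43.1%), against 18.8% of expressed H3K4me3 genes and 25.7% of those with RNA of 0.1 to 1 RPKM. By windows, which repeat the same neighbour within a gene and so carry no interval, it was 196 of 586 (33.4%), against 8.93% of all windows whose gene is in the gene table. An expressed gene here has another symbol and RNA of 1 RPKM or more. Windows at the same H3K4me3 levels had such a neighbour in 20.3% of cases where their own gene had RNA of 1 RPKM or more, and in 27.5% where it had 0.1 to 1 RPKM. Windows of genes with neither mark level nor RNA had one in 1.08%. The neighbour was on the opposite strand for 186 of the 196. By genes, 61 of the 167 with an opposite-strand overlap and 23 of the 63 without one had such a neighbour, 36.5% of each.

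The nearest neighbours were close enough to share a window. The start of BC026590 (1.47 RPKM) lay 3 bp from the middle of the window of Ikbkap, a subunit of the Elongator complex, whose RNA was listed at 0. Srp54a (1.19 RPKM) lay 3 bp from that of Srp54b; the pair are near-identical copies, so both values are uncertain. Gnb2, a G protein subunit gene at 13.03 RPKM, lay 6 bp from the window listed for Epo, the erythropoietin gene, and that window is 47430 bp from the nearest Epo start of the gene table. Kif20a, a mitotic kinesin gene at 8.98 RPKM, lay 21 bp from that of the bromodomain gene Brd8. The neighbours of Yrdc (1110065P20Rik, 2.75 RPKM), Nfs1 (Romo1) and Tdg (Gm9855, 5.22 RPKM) lay 27 to 37 bp away. The H3K4me3 in such a window cannot be told apart between the 2 genes.

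For 25 of the 230 genes the window lay more than 1 kb from any start of that symbol in the gene table, and for 19 more than 10 kb. For these the H3K27me3 below was measured elsewhere than the H3K4me3. The window named for 5830403L16Rik (11.68 RPKM at 100000 cells) lay 49018 bp from its gene table start and 266 bp from the start of Glul, the glutamine synthetase gene, listed at 29.69 RPKM. Of the 25, 17 had an expressed neighbour within 2 kb, against 67 of the 205 others.

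H3K27me3, which the rule did not use, was low at most members and high at a minority. Of the 230 genes, 29 (12.6%, exact 95% interval 8.61 to 17.6%) had 1 RPKM or more at 100000 cells, against 9.71% of all 20317 genes, 2.41% of expressed H3K4me3 genes and 13.9% of genes with neither H3K4me3 nor RNA. H3K4me3 genes with RNA from 0.1 to 1 RPKM stood above the members, with 129 of 639 (20.2%). At 10000 cells 33 members (14.3%) reached 1 RPKM, against 11.2% of all genes, and at 1000 cells 13 (5.65%), against 5.23%. For H3K4me3 genes with RNA from 0.1 to 1 RPKM these shares were 23.0% and 9.23%. With 20 and 10 RPKM of H3K4me3 asked, 3 of 132 members (2.27%) reached 1 RPKM at 100000 cells, below the share of all genes, and with 5 and 2.5 RPKM 100 of 400 (25.0%). The share of members near that of all genes is not a result about the group as a whole. The median of the members was 0.20, 0.23 and 0.28 RPKM at 100000, 10000 and 1000 cells, against 0.28, 0.28 and 0.31 RPKM for all genes.

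Position divided the members. Of the 63 without an opposite-strand overlap, 20 had 1 RPKM or more of H3K27me3 (31.7%, 20.6 to 44.7%), and of the 167 with one, 9 (5.39%, 2.49 to 9.98%). Of the 40 with neither an overlap nor an expressed neighbour, 19 did (47.5%, 31.5 to 63.9%), with a median of 0.88 RPKM. The 23 with a neighbour only had a median of 0.47 RPKM, the 106 with an overlap only 0.17, and the 61 with both 0.14 RPKM, close to the 0.16 RPKM of expressed H3K4me3 genes. At 10000 cells the counts were 24 of 63 and 9 of 167, and at 1000 cells 9 of 63 and 4 of 167. The order of both groups was thus alike in the 3 libraries, each of which is a single library.

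**Figure D3:**
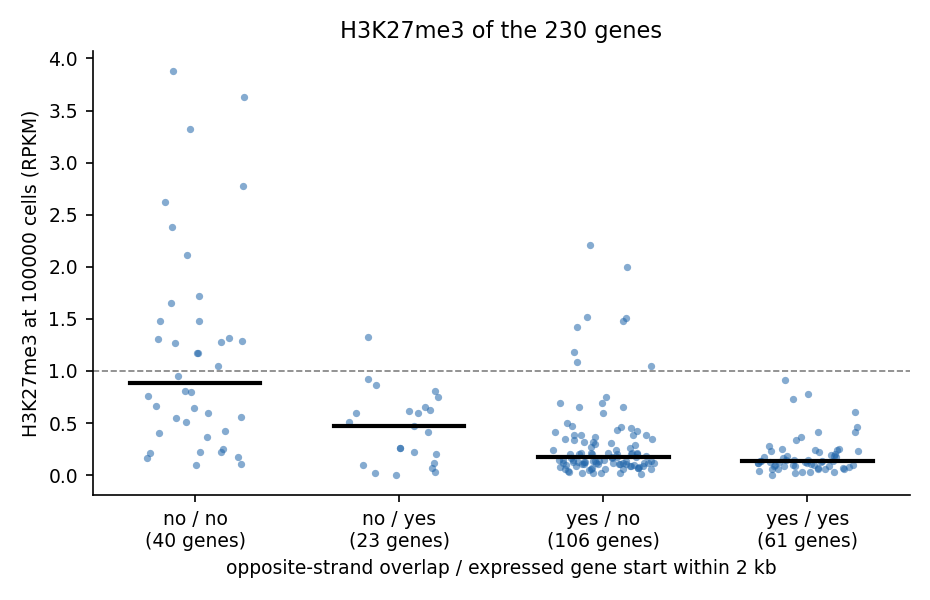
H3K27me3 at 100000 cells in RPKM (vertical axis) of the 230 genes, split by opposite-strand overlap and by an expressed start site within 2 kb; each point is a gene, bars are medians and the dashed line is 1 RPKM. Genes with neither had a median of 0.88 RPKM, and genes with both 0.14 RPKM.

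The 8 genes highest in H3K27me3 included regulators of development. Hlx, a homeobox gene of gut and liver mesenchyme, had 3.88, 4.46 and 2.69 RPKM at 100000, 10000 and 1000 cells, with H3K4me3 of 1.63, 18.75 and 5.92 RPKM at 100000, 10000 and 5000 cells and RNA listed at 0. Irx3, an Iroquois homeobox gene, had 3.63, 4.28 and 1.94 RPKM of H3K27me3. Foxc2, a forkhead gene of mesenchyme and lymphatic vessels, had 3.32, 3.07 and 1.67 RPKM. N28178, the orphan receptor gene Gpr25, Kl, the phosphatase gene Phospho1 and BC021891 followed at 2.11 to 2.78 RPKM at 100000 cells. Of these 8, Phospho1 alone overlapped a gene on the opposite strand, Abi3 (0.02 RPKM of RNA), and 0 had an expressed start site within 2 kb. Each of the 8 was lower at 1000 than at 100000 cells. All 29 genes at 1 RPKM or more at 100000 cells were also at 1 RPKM or more at 10000 cells, and 12 were at 1000 cells. Their medians were 1.48, 1.69 and 0.82 RPKM, and being chosen at 100000 cells they are a description.

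At the low end, Timm8b, an import chaperone gene of mitochondria, and Srp54b were at 0 RPKM of H3K27me3 at 100000 cells and Hdgfrp2 at 0.01 RPKM. Several genes followed at 0.02 RPKM. The 142 genes under 0.3 RPKM overlapped on the opposite strand in 124 cases (87.3%) and had a median H3K4me3 of 5.69 RPKM at 100000 cells, against 9 of 29 (31.03%) and 3.91 RPKM for the genes at 1 RPKM or more. Members rich in H3K27me3 thus had less H3K4me3 in this library. Both marks on the same chromosomes and marks in different cells of the culture cannot be told apart in these data.

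**Figure D4:**
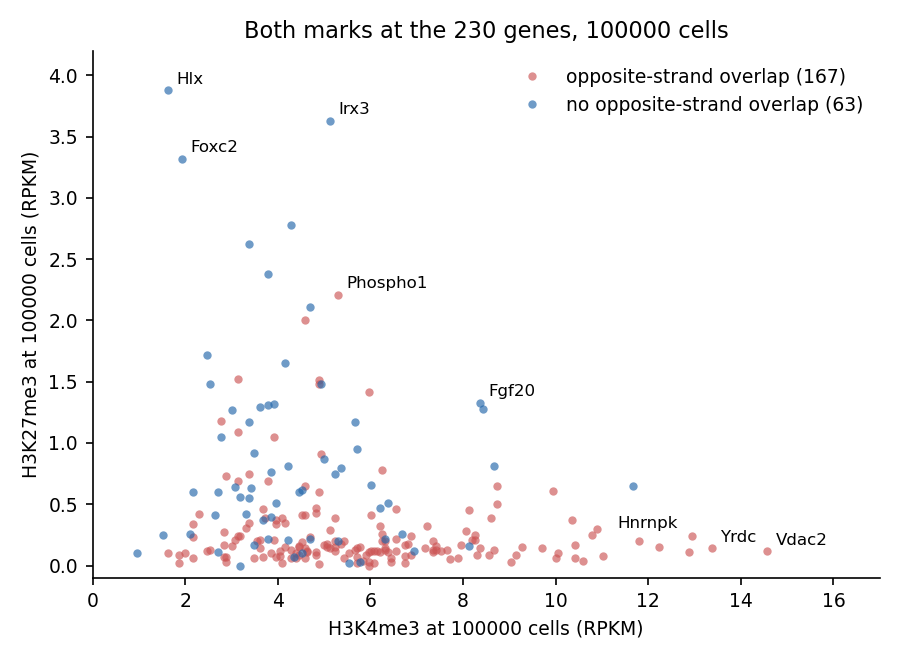
H3K4me3 (horizontal) and H3K27me3 (vertical) at 100000 cells in RPKM; each point is 1 of the 230 genes, coloured by opposite-strand overlap. Hlx, Irx3 and Foxc2 lie at 3.32 to 3.88 RPKM of H3K27me3, and Vdac2, Yrdc and Hnrnpk at 12.23 to 14.57 RPKM of H3K4me3 with at most 0.15 RPKM of H3K27me3.

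Of the 230 members, 182 were in no listed gene class, as were 14613 of the 20317 genes in both tables. That share is therefore only a description. Of 217 lineage transcription factors in both tables, 4 were members: Irx3, Foxc2, Foxl2 (ovary and eyelid) at 1.31 RPKM of H3K27me3 at 100000 cells, and Isl1 (heart and motor neurons) at 1.29. None of the 4 overlapped a gene on the opposite strand. The signalling list gave 1 of 127 genes, Fgf20 (1.33 RPKM, though its window lay 21377 bp from any Fgf20 start of the gene table and 281 bp from the start of Efha2, listed at 14.83 RPKM), the ion channel list 1 of 134, Kcna3 (1.72), and the neurotransmitter receptor list 1 of 104, the serotonin receptor gene Htr6 (0.64). Receptor genes named Gpr gave 2 of 94, Gpr25 (2.62) and Gpr45 (1.65). Over all genes in both tables the members made up 1.13%, and 1.84% of the lineage factors were members. Only genes at the H3K4me3 levels could be members, and of those 8550 genes the 230 made up 2.69%. The lineage list held 28 such genes, the signalling list 23, the ion channel list 20, the neurotransmitter receptor list 9 and the Gpr list 19. Differences from the 2.69% were not tested. HOX cluster, germline, fibroblast marker, embryonic stem cell marker, immune, microRNA, histone, olfactory receptor, zinc finger (Zfp), keratin, collagen, clustered protocadherin, small nucleolar RNA and cytochrome P450 genes gave 0 members each. The HOX, olfactory receptor, protocadherin, microRNA and small nucleolar RNA lists held 0 genes at the H3K4me3 levels, so they could give no member. The immune list held 1 such gene, the keratin and fibroblast lists 2 each and the cytochrome P450 list 3. The germline and collagen lists held 6 each, the histone list 14, the stem cell marker list 21 and the Zfp list 200.

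Uncharacterised transcripts, named by Rik, Gm and similar symbols, gave 33 of 2165 genes (1.52%), of which 19 overlapped on the opposite strand. BC021891 (2.11 RPKM of H3K27me3) and 1700018A14Rik (1.51) led them, before BC037032 (0.91) and 4833418N02Rik (0.81). Solute carrier genes gave 4 of 345, the glutamate transporter Slc1a2 (1.17 RPKM), Slc48a1 (0.75), Slc6a9 (0.50) and Slc16a6 (0.20), and genes named Tmem 2 of 209, Tmem221 (0.80) and Tmem51 (0.20). At the H3K4me3 levels were 637 of the uncharacterised transcripts, 132 of the solute carrier genes and 111 of the Tmem genes. The other 182 members were in no class, and 144 of them overlapped a gene on the opposite strand.

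H3K9me3, a mark of heterochromatin that the rule did not use, was low at members. The deposited 2 kb bins sample the genome sparsely, and 31 bins lay within 1 kb of a member start. H3K9me3 was below panH3 in 25 of the 31 (80.6%) and above it in 0 (limma, Benjamini-Hochberg over 93575 bins at 0.05), against 24.7% lower and 15.2% higher among all bins. Mean H3K9me3 over the 31 bins was 0.154 ± 0.005 RPKM (SD, n = 3) and panH3 0.470 ± 0.011 (SD, n = 2), with a median log2 difference of -1.57 on the log2(RPKM + 0.1) scale. Bins at expressed H3K4me3 genes were lower in 971 of 1093 (88.8%), and bins at genes with neither mark level nor RNA in 161 of 976 (16.50%). The difference between members and these groups was not tested. Without bins that also hold an expressed start site, 17 of 23 were lower. Of bins at genes with an opposite-strand overlap 21 of 24 were lower (median log2 difference -1.63), and of those without one 4 of 7 (-0.95).

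The bin with the largest drop was at Ncstn, a gamma-secretase subunit gene, at chr1:174010001-174012000 (mm9). H3K9me3 was 0.09, 0.06 and 0.07 RPKM in libraries a, b and c, and panH3 was 0.81 and 0.88 RPKM in a and b. The groups did not overlap, and the log2 difference was -2.45 (SE 0.25, limma adjusted p = 4.70e-08). At Hnrnpk H3K9me3 was 0, 0.03 and 0.02 RPKM and panH3 0.36 and 0.25, a difference of -1.79 (SE 0.26, limma adjusted p = 4.88e-06). The other called bins were those of N4bp3, Fam63a, Fip1l1, Creb3, Wfdc3, Spsb2, Itsn2, Gba2, Tmem51, Syvn1, Pi4kb, AY074887, Rab3a, Eng, Rab3gap2, BC037032, Icmt, Fam19a3, A930018P22Rik, Acvr2a, Fos, Ak3 and Rhpn2, with differences from -2.15 (N4bp3) to -0.80 (Rhpn2). The 6 bins that were not called, chosen for that, were those of Erbb2, Nptxr, Adamts18, Foxl2, Ddx54 and Syn2, with differences from -0.55 (Erbb2) to 0.44 (Syn2). When each library was centred on its median, 24 member bins were lower and 1 higher. That centring moved the median of all bins from -0.10 to 0.08 and their split from 23158 lower and 14224 higher to 18564 and 20312.

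**Figure D5:**
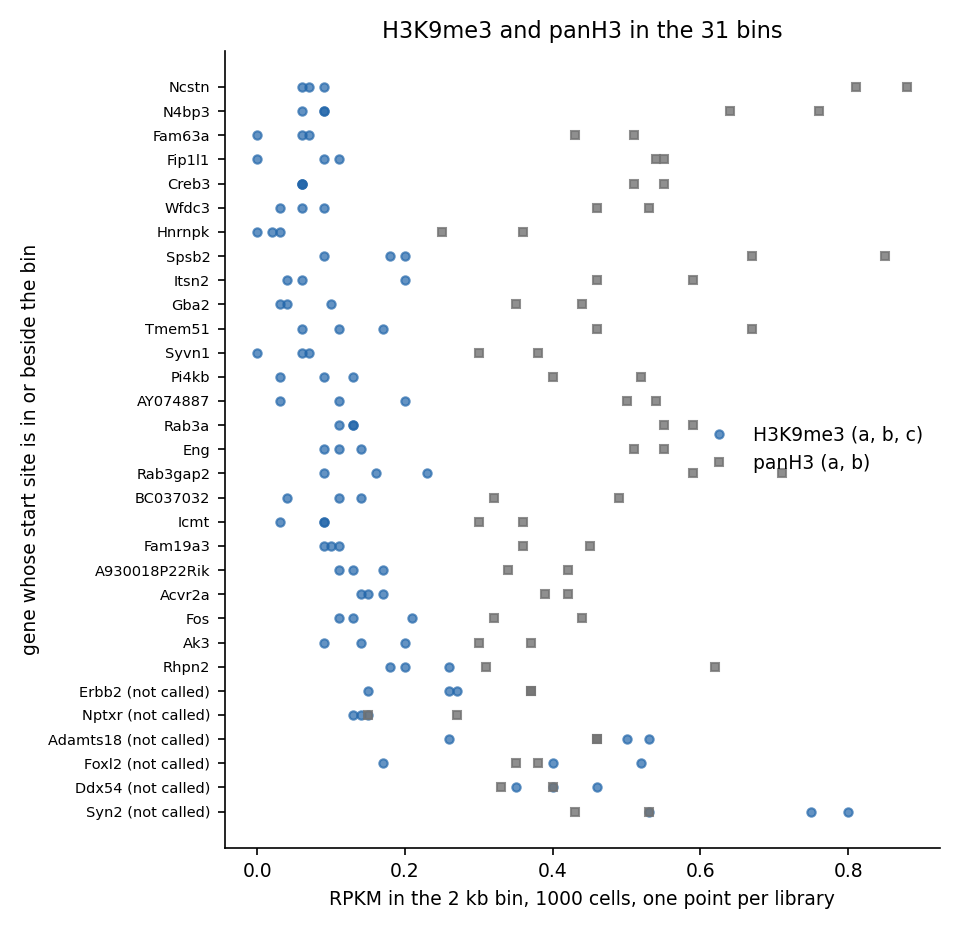
H3K9me3 (circles, libraries a, b and c) and panH3 (squares, libraries a and b) at 1000 cells in RPKM (horizontal axis) in the 31 bins, ordered by their log2 difference; each row is named by its gene. In the 25 called bins every H3K9me3 value lies below every panH3 value.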

How the data were processed

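The members and gene lists were chosen with earlier results of these data known. The authors deposited RPKM values per library, per the file headers, in 3 tables: 1 kb windows around start sites (H3K4me3), a gene table (H3K27me3 within 1 kb of the start, and RNA over exons, beside exon lengths in base pairs) and 2 kb bins (H3K9me3, H3K27me3 and panH3). BWA, SAMtools and mm9 are named in the submitters' processing notes, while the sources used here give no versions, counting method or filters. Another 2 columns of the start-site table belong to no sample here and were not used. No H3K4me3 window exceeded 49.21, 99.38 and 49.55 RPKM at 100000, 10000 and 5000 cells, and higher windows may have been removed before deposit. ChIP depth was recovered from the steps of the RPKM values (13.03 to 45.5 M reads in bins, M for 1000000), and the depth of the RNA library is unknown.

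Scripts in Python 3.11.15 (pandas 2.3.3, numpy 2.4.6, scipy 1.17.1, matplotlib 3.10.9) took 1 window and 1 H3K27me3 row a gene (the highest at 100000 cells, and the highest mean over 3 libraries). Shares carry exact Clopper-Pearson 95% intervals, which cover counting error only. The bins were tested with limma 3.58.1 in R 4.3.3 on log2(RPKM + 0.1), with trend and robust moderation, two-sided, in bins above 0 in at least 1 of 5 libraries. On simulated bins the test recovered 21% of 2-fold and 100% of 4-fold rises of H3K9me3, with 0 false calls among 93523 bins. The spread between simulated libraries was assumed. Decreases, the direction called at members, were not simulated, so their recovery is unknown. Other comparisons rest on 1 library a group and carry no test. Named genes are the 8 highest and 4 lowest in H3K4me3 and in H3K27me3 at 100000 cells, the 8 with the nearest expressed neighbour (1 of them is not reported here), those beside the thresholds, up to 4 a class and all called bins; overlap partners and genes with windows far from their start were added after values were seen. RefSeq genes were matched by accession, then by symbol, and the first listed start was used.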

Additional observations from a re-analysis of the deposited data

How the results depend on the processing

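Settings of the member rule changed how many genes it held: 132 with 20 and 10 RPKM of H3K4me3, 400 with 5 and 2.5 RPKM, 80 with RNA listed at 0, 566 with RNA under 0.5 RPKM and 16 when 10 RPKM was also asked at 100000 cells. The share with 5 RPKM or more at 100000 cells was 72.7% with 20 and 10 RPKM, 29.25% with 5 and 2.5 RPKM and 57.5% with RNA listed at 0. The share with H3K27me3 of 1 RPKM or more was 2.27% with 20 and 10 RPKM, 25.0% with 5 and 2.5 RPKM, 18.4% with RNA under 0.5 RPKM, 19.18% in members without an expressed neighbour and 5.65% at 1000 cells; at levels of 0.5 and 2 RPKM it was 26.1% and 3.91%. Expressed neighbours were found for 37.6% of windows with 20 and 10 RPKM, 27.9% with 5 and 2.5 RPKM, 37.5% within 5000 bp, 19.97% with neighbour RNA of at least 5 RPKM and 40.96% with at least 0.1 RPKM. Opposite-strand overlap, added after seeing the data with its alternatives, was 52.2% for overlaps of at least 50 bp, 86.4% with 20 and 10 RPKM, 56.25% with 5 and 2.5 RPKM, 81.25% with RNA listed at 0 and 48.2% with RNA under 0.5 RPKM, above the 9.76% of all genes in each. These settings admit other genes or levels by construction; the cause of each shift was not tested. Of 58 alternatives, the other 32 stayed within the interval of the reported share or within 1.5 times the reported count.

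Lower H3K9me3 than panH3 was called in 21 to 26 of 31 bins when 1 library was left out, where the lone panH3 library was assumed to vary like the others, and in 7 of 8 bins that hold the middle of a member window. With a replicate block it was called in 24; no label pairs the letters, and the a minus b deviations of both antibodies correlated at -0.0108. Depth limits the 10000-cell and 5000-cell H3K4me3 values most, since a window at the threshold rests on 11 and 10 reads.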

Other observations

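Among 355 opposite-strand pairs in which both genes met the H3K4me3 levels, 148 (41.7%) had RNA of 1 RPKM or more on both strands and 9 had under 0.1 RPKM on both. In 91 pairs 1 gene was under 0.1 RPKM and the other at 1 RPKM or more, and in 16 the other had 0.1 to 1 RPKM. In those 91 pairs the gene under 0.1 RPKM was the shorter one in 40 and lay on the plus strand in 47.

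Families that nearly every cell uses were checked for values under 0.1 RPKM, a choice made after the values were seen. Over all 22035 genes of the gene table, 6783 (30.8%) were under 0.1 RPKM. Of 42 genes of mitochondrial complex I (Nduf) 2 were under 0.1 RPKM, of 58 translation initiation genes (Eif) 2, and of 49 proteasome genes (Psm) 3. Of 94 ribosomal protein and S6 kinase genes (Rpl or Rps and a number) 0 were, nor were any of 76 mitochondrial ribosome genes (Mrp) or 28 RNA polymerase genes (Polr).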
